A study of Mus musculus with 20 samples.

Results

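The collagens and laminins were taken as every protein-coding gene of the deposited table whose symbol names a numbered collagen chain (Col, a type number and a chain number) or a laminin alpha, beta or gamma chain (Lama, Lamb or Lamc and a number). The rule gave 55 of the 19463 genes in the table, 44 collagen genes and 11 laminin genes, and no value was used in it. All 55 such genes of the GENCODE M21 annotation were in the table, and 54 passed the filter on low values (a mean of at least 10 normalized counts over the mice compared). Col10a1, the collagen X of growth-plate cartilage, did not, with 6.91 to 10.8 normalized counts in P21 WT mice, 6.29 to 13.4 in P21 KO mice, 5.83 to 18.8 in P70 WT mice and 5.73 to 15.4 in P70 KO mice.

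RNA-Seq was performed on whole brains of male C57BL/6J mice that lacked Katnal2, a gene for a microtubule-related protein of the katanin family (KO), and of their wild-type counterparts (WT). The 4 groups were P21 WT, P21 KO, P70 WT and P70 KO, with 5 mice in each and 20 in all, and P21 and P70 stand for ages of 3 and 10 weeks. KO mice came from ES cells with the EUCOMM Katnal2 tm1a allele, crossed to Protamine-Flp mice and treated as embryos with HTNC, a Cre recombinase that enters cells, so the deletion was not limited to a cell type. Mice of both genotypes shared the C57BL/6J background and were housed together as littermates after weaning. The deletion takes out exon 3, and the gene-level value also counts the other exons. At P21 Katnal2 had 78.1 to 96.0 normalized counts in KO mice and 99.3 to 115 in WT mice, without overlap, and at P70 it had 95.1 to 125 in KO mice and 101 to 141 in WT mice, which overlapped. A whole brain holds neurons and glia together with vessels, choroid plexus and adhering meninges, and in such bulk RNA fewer cells of a type and less RNA per cell cannot be told apart.

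Collagens are built from chains wound into helices, and laminins from an alpha, a beta and a gamma chain joined in a cross. Basement membranes, the thin sheets of matrix under endothelium and around the brain surface, hold a network of collagen IV and a network of laminin, linked by nidogen and perlecan. Fibrillar collagens such as collagens I and III are otherwise scarce in the brain and are known from the meninges and the walls of larger vessels, while several transmembrane collagens are made by neurons.

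Partner chains are often encoded side by side, and the stretches of DNA at 3 such places and 2 others are shown because they lie at the starts of the collagens with the largest age differences or of collagen IV chains described as pairs. All sequences were read from the RefSeq promoter table (build GRCm38.p6), which had a window for 40 of the 55 genes, and starts are those of GENCODE M21 on GRCm38. Col4a1 and Col4a2 start head to head on chromosome 8, and their first exons overlap in chr8:11312805-11312826, given on the plus strand. Col4a4 and Col4a3 start 72 bases apart on chromosome 1, and the stretch between them, chr1:82586850-82586920, is given on the minus strand, on which Col4a4 is read. Col4a6 and Col4a5 start 1309 bases apart on chromosome X, and the bases before the start of Col4a5 are chrX:141475169-141475384. The bases before the starts of Col3a1, chr1:45311288-45311537, and of Col9a1, chr1:24177360-24177609, are given for the collagens with the largest age differences, and these and those of Col4a5 are on the plus strand. Both strands were searched for the motifs CCAAT and GGGCGG, and for TATAAA, and capitals mark each match.
Col4a1 and Col4a2: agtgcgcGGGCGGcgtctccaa
Col4a3 and Col4a4: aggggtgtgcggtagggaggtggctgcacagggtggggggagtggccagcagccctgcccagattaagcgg
Col4a5: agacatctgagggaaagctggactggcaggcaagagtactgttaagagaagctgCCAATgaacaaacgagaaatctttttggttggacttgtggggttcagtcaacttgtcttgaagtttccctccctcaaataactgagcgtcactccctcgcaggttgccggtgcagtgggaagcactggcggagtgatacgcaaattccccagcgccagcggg
Col3a1: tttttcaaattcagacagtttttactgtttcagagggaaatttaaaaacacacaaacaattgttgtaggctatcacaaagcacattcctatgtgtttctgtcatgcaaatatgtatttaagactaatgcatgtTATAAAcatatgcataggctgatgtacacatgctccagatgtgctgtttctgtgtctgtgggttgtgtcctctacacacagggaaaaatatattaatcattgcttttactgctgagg
Col9a1: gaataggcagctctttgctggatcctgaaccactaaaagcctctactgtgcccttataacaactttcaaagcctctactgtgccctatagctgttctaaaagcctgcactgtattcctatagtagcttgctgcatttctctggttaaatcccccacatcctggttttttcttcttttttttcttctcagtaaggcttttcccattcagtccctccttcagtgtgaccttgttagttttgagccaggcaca

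The stretch shared by Col4a1 and Col4a2 held a GGGCGG, that of Col4a5 a CCAAT and that of Col3a1 a TATAAA, and the other stretches held none of these letters. Over the whole windows of 300 bases, GGGCGG was in 59.1% of the 44 windows of collagen and laminin genes and in 35.7% of the 32851 windows of all genes. CCAAT was in 31.8% and 37.4% and TATAAA in 11.4% and 13.6%. These are matches of letters only.

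The values of a mouse summed to 27310523 to 28423042 normalized counts, and steps between the low values put the depth at about 25.5 to 35.3 M reads at P21 and 23.2 to 26.7 M reads at P70. The replicate 5 mice of both genotypes at P70 stood apart, with a median correlation with the other mice of 0.967 in KO and 0.974 in WT, against 0.984 to 0.989 in the remaining mice. Of the 54 chains, 26 were highest in replicate 5 among the P70 WT mice and 25 among the P70 KO mice. Other mice were often the lowest of their group, P70 KO replicate 2 and P21 WT replicate 5 for 24 chains each. P70 WT replicate 1 was the lowest for 22. Such shares were not counted over all genes, so they cannot be read as particular to the chains. Among the P70 mice the sums over 6 astrocyte markers were lowest in replicate 5, at 63514.6 in KO and 74957 in WT, against 89026 to 99803 in the others. Replicate 5 was instead the highest P70 mouse of its genotype for the sums over brain endothelial markers (13088 in WT and 13374 in KO). The same held for pericyte and smooth muscle markers (6808 and 7466) and choroid plexus markers (27914 and 27819.8). For fibroblast markers it held in WT mice only, and the part of these cells was not tested. Comparisons are therefore also given without the replicate 5 mice of both ages. Those at P21 did not stand apart, with a median correlation of 0.988 in either genotype. These comparisons thus do not show the part of the P70 replicate 5 mice alone. The labels name no sequencing run, so that age and run cannot be told apart.

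Together the 55 genes took 0.0954% to 0.113% of all normalized counts in P21 WT mice, 0.0990% to 0.112% in P21 KO, 0.0827% to 0.108% in P70 WT and 0.0776% to 0.108% in P70 KO mice. To compare chains with each other, mean normalized counts were divided by the length of all exons of the gene in kilobases. On this scale Col6a1, a chain of the collagen VI beaded filaments, was the highest in every group, with 463 per kilobase in P21 WT and 474 in P70 WT mice. The main collagen IV chains Col4a2 (403 and 359 per kilobase) and Col4a1 (327 and 203) and the collagen IX chain Col9a3 (285 and 195) followed. Lamc1, the gamma chain of most laminins, had 205 per kilobase in P21 WT and 139 in P70 WT mice, and Lamb2, a beta chain of vascular and synaptic laminins, had 164 and 175. The lowest on this scale was Col6a6, a further collagen VI chain, at 1.87 per kilobase in P21 WT and 2.01 in P70 WT mice.

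**Figure D1:**
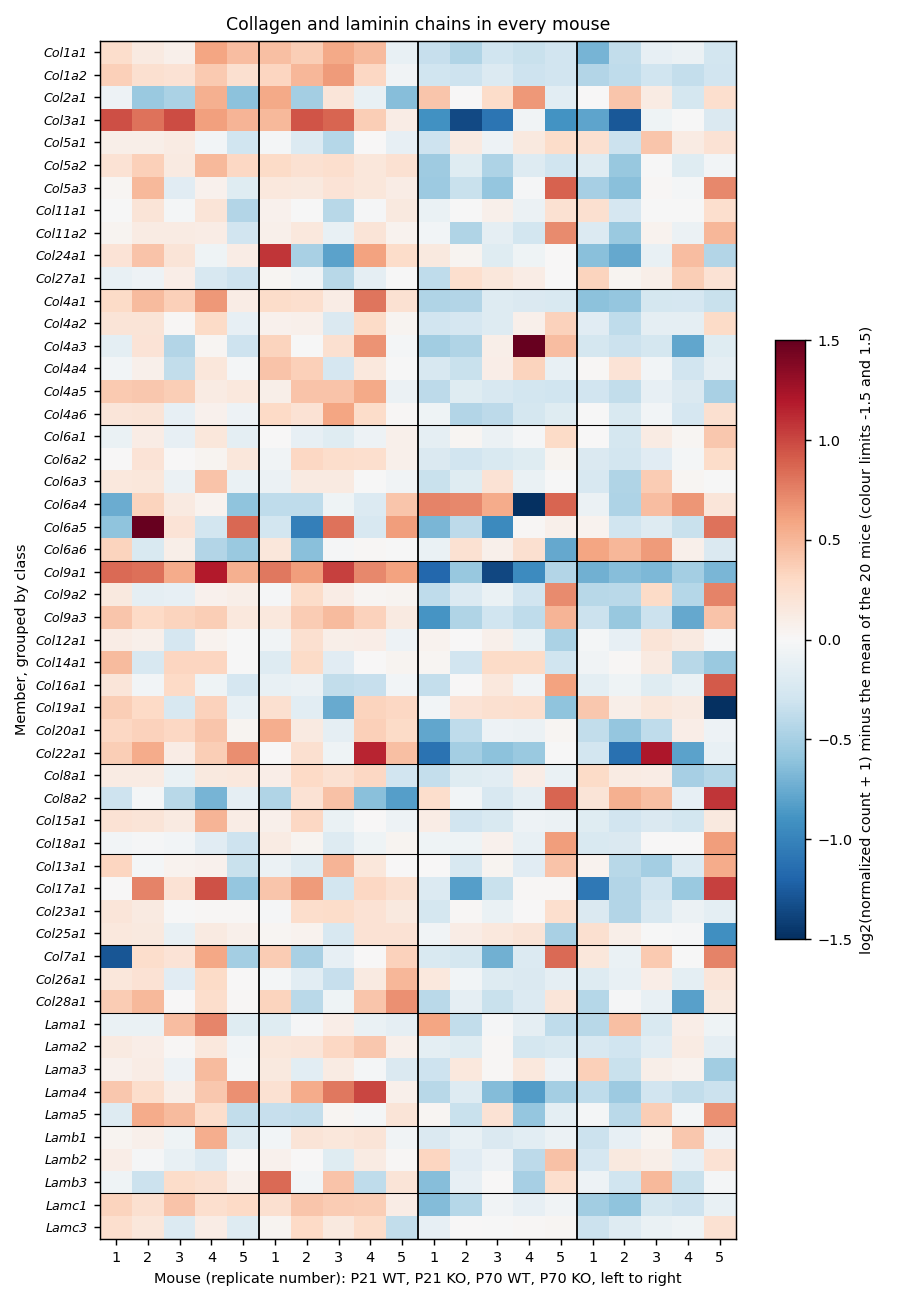
Each row is a collagen or laminin gene that passed the filter, each column a mouse, and the colour is log2(normalized count + 1) minus the mean of the 20 mice, with horizontal lines between classes. Col3a1, Col9a1 and Lama4 are higher in the P21 mice, the first 10 columns, than in the P70 mice of the same genotype, and the last column of each P70 block, replicate 5, is high for Col9a3, Col11a2, Col16a1 and Col18a1.

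To determine how the chains differed between the ages, P70 was compared with P21 within each genotype with limma, and a gene was called when its p, adjusted by Benjamini-Hochberg over all genes tested, was under 0.05. In WT mice 12 of the 54 chains were called, or 22.2%, where 9.32% of the 17630 genes tested were called. Of these, 11 chains fell from P21 to P70 (20.4%, against 4.7% of all genes) and 1 rose (1.85%, against 4.62%). In KO mice 11 of the 54 were called (20.4%, against 8.32% of the 17641 genes tested), and all 11 fell (20.4%, against 4.53%), none having risen (0%, against 3.78%). The estimate was below 0 for 40 chains in WT and 38 in KO mice, with a median log2 fold change of -0.18 in both, beside medians of 0.0015 and -0.010 over all genes. An unadjusted p under 0.05 was found for 19 chains in WT and 19 in KO mice (35.2% each), against 24.5% and 22.7% of all genes.

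The collagens I and III fell at P70. Col3a1 (chr1:45311538-45349706), the chain of collagen III, had 497, 446, 502, 387 and 360.1 normalized counts in P21 WT mice of replicates 1 to 5 and 135, 98.2, 118, 244 and 135 in P70 WT mice. Every P70 mouse lay below every P21 mouse, and the mean dropped from 438 ± 63.6 to 146 ± 56.6 (SD, n = 5 in either group), with a log2 fold change of -1.64 (SE 0.20, adjusted p = 0.000263), where SE is the standard error. In KO mice Col3a1 had 354, 490.2, 465, 328 and 275 at P21 and 146, 105, 242, 252 and 219 at P70, again without overlap, with a log2 fold change of -1.03 (SE 0.24, adjusted p = 0.0216). This call was lost in 4 of 19 other settings (adjusted p up to 0.0627), namely with a replicate block and without P21 KO replicate 2 or 3 or P70 KO replicate 1. The highest P70 mouse of either genotype came close to the lowest P21 mouse of KO. The difference between the genotypes in this age change was 0.61 (95% confidence interval -0.10 to 1.32), which did not pass the test (adjusted p = 1.00).

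Col1a2 (chr6:4504814-4541544) and Col1a1 (chr11:94936224-94953042) encode the chains of collagen I, the fibrils of dura and arterial walls. Col1a2 had 1322, 1219, 1192, 1352 and 1214 normalized counts in P21 WT mice and 833, 829, 894, 826 and 841 in P70 WT mice, with a log2 fold change of -0.57 (SE 0.07, adjusted p = 0.000166). The P70 values kept within a narrow range far below the P21 values. In KO mice Col1a2 had 1286, 1449, 1597, 1275 and 993 at P21 and 755, 792, 835, 801 and 845 at P70, without overlap, with a log2 fold change of -0.70 (SE 0.11, adjusted p = 0.0022). Col1a1 had 641, 587, 565, 807 and 738 in P21 WT mice and 423, 391, 436, 426 and 439 in P70 WT mice, without overlap, and fell with a log2 fold change of -0.65 (SE 0.10, adjusted p = 0.0015). In KO mice it had 734, 691, 792, 747 and 496 at P21 and 329, 413, 492, 502 and 442 at P70, where the lowest P21 mouse lay below the highest P70 mouse, with a log2 fold change of -0.66 (SE 0.14, adjusted p = 0.0138).

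Of the other fibrillar collagens, Col5a2 (chr1:45374321-45503282), a chain of the collagen V that sets the width of collagen I fibrils, had 283, 311, 267, 342 and 302 normalized counts in P21 WT mice and 167, 215, 177, 213 and 198 in P70 WT mice. The groups did not overlap, with a log2 fold change of -0.63 (SE 0.10, adjusted p = 0.00219) in WT and -0.43 (SE 0.11, adjusted p = 0.0291) in KO mice, where the P21 values were 273 to 297 and the P70 values 163 to 242. The call in KO mice was lost in 8 of 19 other settings (adjusted p up to 0.0755), namely with a replicate block and without any of the P21 KO mice or P70 KO replicate 1 or 4. Its partner chain Col5a1 was not called, with 1087, 1090.2, 1121, 995 and 832 in P21 WT mice and 825, 1124, 977, 1134 and 1239 in P70 WT mice, which overlapped, and log2 fold changes of 0.04 (SE 0.11, adjusted p = 0.866) in WT and 0.29 (SE 0.13, adjusted p = 0.202) in KO mice. The other 6 fibrillar chains were not called in either genotype. Among them Col11a2, the highest fibrillar chain per kilobase, had log2 fold changes of -0.06 in WT and -0.14 in KO mice, with 1105, 831, 1039, 936 and 1859 normalized counts in P70 WT mice, where replicate 5 was far above the others. Col2a1, the collagen of cartilage, had the highest estimate of all chains in WT mice, 0.48 (SE 0.23, adjusted p = 0.215), and its values of 46.6 to 105 at P21 and 64.5 to 114 at P70 overlapped. Col27a1 was higher in all 5 P70 KO mice (505 to 633) than in any P21 KO mouse (365 to 498), with a log2 fold change of 0.33 (SE 0.10, adjusted p = 0.0704).

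Of the 6 basement membrane collagen IV chains, Col4a1 and Col4a5 fell in both genotypes. Col4a1 (chr8:11198423-11312826) had 2281, 2585, 2385, 2934 and 2006 normalized counts in P21 WT mice and 1363, 1375, 1636, 1606 and 1589 in P70 WT mice, without overlap, with a log2 fold change of -0.68 (SE 0.10, adjusted p = 0.000908). In KO mice it had 2259, 2215, 2014, 3253 and 2190.1 at P21 and 1220.2, 1247, 1556, 1566 and 1481 at P70, without overlap, with a log2 fold change of -0.74 (SE 0.13, adjusted p = 0.00358). Col4a2 (chr8:11312805-11449287), which joins Col4a1 in the common collagen IV molecule and starts beside it, had 2805, 2788, 2477, 2998 and 2253 in P21 WT mice and 2004, 2053, 2143, 2589 and 3100.4 in P70 WT mice. These overlapped, since replicate 5 at P70 was the highest of the 10 WT mice, and the log2 fold change was -0.18 (SE 0.12, adjusted p = 0.397) in WT and -0.16 (SE 0.12, adjusted p = 0.494) in KO mice. Without replicate 5 at both ages it was -0.34 (adjusted p = 0.022) in WT and -0.26 (adjusted p = 0.0823) in KO mice. In WT mice the call thus depended on the replicate 5 mice, the lowest at P21 and the highest at P70.

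Col4a5 (chrX:141475385-141689234), a chain of the collagen IV found in selected basement membranes such as that of the kidney glomerulus, had 299, 300.3, 292, 246 and 254 normalized counts in P21 WT mice and 172, 199.8, 191, 187 and 184 in P70 WT mice, without overlap. Its log2 fold change was -0.57 (SE 0.09, adjusted p = 0.00223) in WT and -0.58 (SE 0.13, adjusted p = 0.0179) in KO mice, where 212 to 337 at P21 and 162 to 208 at P70 nearly met, and in KO mice the call was lost without P21 KO replicate 2 or 4 (adjusted p up to 0.0546). Its neighbour Col4a6 had log2 fold changes of -0.32 (SE 0.13, adjusted p = 0.156) and -0.34 (SE 0.14, adjusted p = 0.182). Col4a3 and Col4a4, the other chains of the glomerular network, were scarce. Col4a3 had 34.0, 43.5, 27.5, 38.4 and 30.2 normalized counts in P21 WT mice and 26.1, 27.2, 40.2, 123 and 52.4 in P70 WT mice, where replicate 4 was more than 2 times as high as any other, and log2 fold changes of 0.39 (SE 0.35, adjusted p = 0.539) in WT and -0.61 (SE 0.19, adjusted p = 0.0674) in KO mice. Col4a4 had -0.02 and -0.19 and was not called.

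Of the laminins, Lama4 and Lamc1 fell in both genotypes. Lama4 (chr10:38965515-39110188), the alpha chain of an endothelial laminin, had 288, 263, 231, 288 and 352 normalized counts in P21 WT mice and 163, 191, 139, 121 and 152 in P70 WT mice. In KO mice it had 256, 321, 379, 439 and 229.9 at P21 and 166, 149, 178, 169 and 174 at P70. Every P70 mouse lay below every P21 mouse of its genotype, with log2 fold changes of -0.89 (SE 0.14, adjusted p = 0.0014) in WT and -0.92 (SE 0.16, adjusted p = 0.00405) in KO mice, and the P21 KO mice spread more widely than any other group.

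Lamc1 (chr1:153218922-153332786) had 1720.0, 1613, 1833, 1622 and 1676 normalized counts in P21 WT mice and 868, 1014, 1316, 1245 and 1315 in P70 WT mice, with a log2 fold change of -0.57 (SE 0.11, adjusted p = 0.00595). In KO mice it had 1609.9, 1822, 1768, 1763 and 1473 at P21 and 951, 895, 1133, 1097 and 1257 at P70, with a log2 fold change of -0.67 (SE 0.10, adjusted p = 0.00153). The ages did not overlap in either genotype. The beta chains that join it, Lamb1 and Lamb2, were not called, with log2 fold changes of -0.24 (SE 0.12, adjusted p = 0.231) and 0.06 (SE 0.14, adjusted p = 0.825) in WT mice and -0.11 (SE 0.12, adjusted p = 0.663) and 0.01 (SE 0.10, adjusted p = 0.968) in KO mice.

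Lama2 (chr10:26980036-27619758), the alpha chain of the laminin around muscle fibres and along brain vessels, was called in KO mice only, where it had 569.9, 575, 628, 668 and 534 normalized counts at P21 and 429.6, 411, 452, 553 and 461 at P70. A P70 mouse reached the P21 range, and the log2 fold change was -0.37 (SE 0.10, adjusted p = 0.0335). This call was lost in 7 of 19 other settings (adjusted p up to 0.0935), namely without replicate 1, 2, 3 or 4 at P21 or replicate 1, 2 or 3 at P70. In WT mice it was -0.23 (SE 0.08, adjusted p = 0.0836), with overlapping values of 494 to 566 at P21 and 421 to 512 at P70, and the genotypes did not differ in this change past the test (-0.13, 95% confidence interval -0.38 to 0.11, adjusted p = 1.00). Lama5, the highest alpha chain per kilobase, had opposite estimates of -0.31 (SE 0.19, adjusted p = 0.337) in WT and 0.22 (SE 0.19, adjusted p = 0.546) in KO mice, and the values of 399 to 758 and 344 to 598 in WT mice and 401 to 590.1 and 387 to 827 in KO mice overlapped.

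The collagens that lie on the surface of fibrils, called FACIT collagens, held the largest fall of all chains. Col9a1 (chr1:24177610-24252684), a chain of collagen IX, had 53.7, 52.9, 43.8, 68.2 and 42.9 normalized counts in P21 WT mice and 12.5, 19.5, 10.8, 14.8 and 21.4 in P70 WT mice. In KO mice it had 51.4, 45.9, 60.7, 49.2 and 45.1 at P21 and 17.4, 18.6, 18.1, 20.3 and 17.9 at P70. The lowest P21 mouse of either genotype was about 2 times as high as the highest P70 mouse, with log2 fold changes of -1.69 (SE 0.22, adjusted p = 0.000475) in WT and -1.40 (SE 0.15, adjusted p = 0.000227) in KO mice. Its partner Col9a3 had 1177, 1083, 1112, 1136 and 984 in P21 WT mice and 478, 642, 715, 675 and 1252 in P70 WT mice, where replicate 5 was higher than every P21 mouse and the other 4 were lower. Col9a3 did not pass with all mice, at -0.62 (SE 0.19, adjusted p = 0.0548) in WT and -0.61 (SE 0.18, adjusted p = 0.0593) in KO mice, and without replicate 5 it was at -0.86 (adjusted p = 0.00054) and -0.83 (adjusted p = 0.000295). Col9a2 had -0.06 and -0.13 and was not called.

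Col22a1 (chr15:71795795-72034227), a collagen of tissue junctions such as that of muscle and tendon, had 95.3, 108, 79.4, 95.4 and 119.5 normalized counts in P21 WT mice and 33.7, 51.5, 47.7, 49.8 and 73.1 in P70 WT mice, without overlap, with a log2 fold change of -0.98 (SE 0.19, adjusted p = 0.00627). This call was lost in a shared fit of all 20 mice (adjusted p = 0.0532). In KO mice 74.1, 87.5, 70.2, 164 and 101 at P21 and 60.7, 33.4, 171, 41.9 and 68.1 at P70 overlapped, since replicate 3 was the highest of all 20 mice, and the log2 fold change was -0.57 (SE 0.38, adjusted p = 0.414). Col20a1 (chr2:180986535-181018363) had 236, 241, 235, 253 and 194 in P21 WT mice and 109.7, 145, 179.9, 178 and 193 in P70 WT mice, which all but touched, with a log2 fold change of -0.55 (SE 0.15, adjusted p = 0.0342), and in KO mice it was -0.50 (SE 0.15, adjusted p = 0.0688). The call in WT mice was lost in 8 of 19 other settings (adjusted p up to 0.0924), namely without an intensity trend, with a replicate block, and without replicate 1, 2, 3 or 4 at P21 or replicate 1 or 2 at P70. For these chains the difference between the genotypes in the age change was 0.40 (95% confidence interval -0.54 to 1.34) for Col22a1 and 0.05 (-0.41 to 0.51) for Col20a1, each with an adjusted p of 1.00.

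Col23a1 (chr11:51289920-51583918), a transmembrane collagen, was called in KO mice only. It had 514, 624, 628, 606 and 574 normalized counts in P21 KO mice and 447, 383, 440.3, 488 and 469 in P70 KO mice, without overlap, with a log2 fold change of -0.40 (SE 0.09, adjusted p = 0.0141). This call was lost with a replicate block (adjusted p = 0.0550). In WT mice 589, 571, 517, 526 and 527 at P21 and 435, 526, 484, 521 and 622 at P70 overlapped, with a log2 fold change of -0.09 (SE 0.10, adjusted p = 0.629). The difference between the genotypes was -0.32 (95% confidence interval -0.58 to -0.06), the smallest unadjusted p of the chains in the interaction at 0.0198, which did not pass after adjustment (adjusted p = 1.00). Col25a1, a transmembrane collagen of neurons and the highest of its class per kilobase, had -0.10 in WT and -0.18 in KO mice.

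No chain was called in the collagen VI class, the short-chain network collagens, the multiplexins or the collagens VII, XXVI and XXVIII in either genotype. Col6a1 had 1907, 2215, 1883, 2301 and 1844 normalized counts in P21 WT mice and 1863, 2085, 1917, 2026 and 2500.4 in P70 WT mice, with a log2 fold change of 0.03 (SE 0.09, adjusted p = 0.876), and 0.12 in KO mice. Col8a2, a chain of the collagen VIII of vessel walls and cornea, had the highest estimate in KO mice, 0.68 (SE 0.27, adjusted p = 0.151), and 0.46 (SE 0.20, adjusted p = 0.172) in WT mice. Col18a1, the source of endostatin, had 878, 876, 953, 843 and 1414 in P70 WT mice and 781, 787, 915, 919 and 1410.3 in P70 KO mice, where replicate 5 was the highest in both, and log2 fold changes of 0.21 and 0.05. Col15a1, its relative in vascular basement membranes, had -0.35 (SE 0.11, adjusted p = 0.0567) and -0.20 (SE 0.11, adjusted p = 0.314). Col7a1, which forms anchoring fibrils, varied widely, from 107 to 394 in P21 WT mice, and had log2 fold changes of 0.04 and 0.22.

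**Figure D2:**
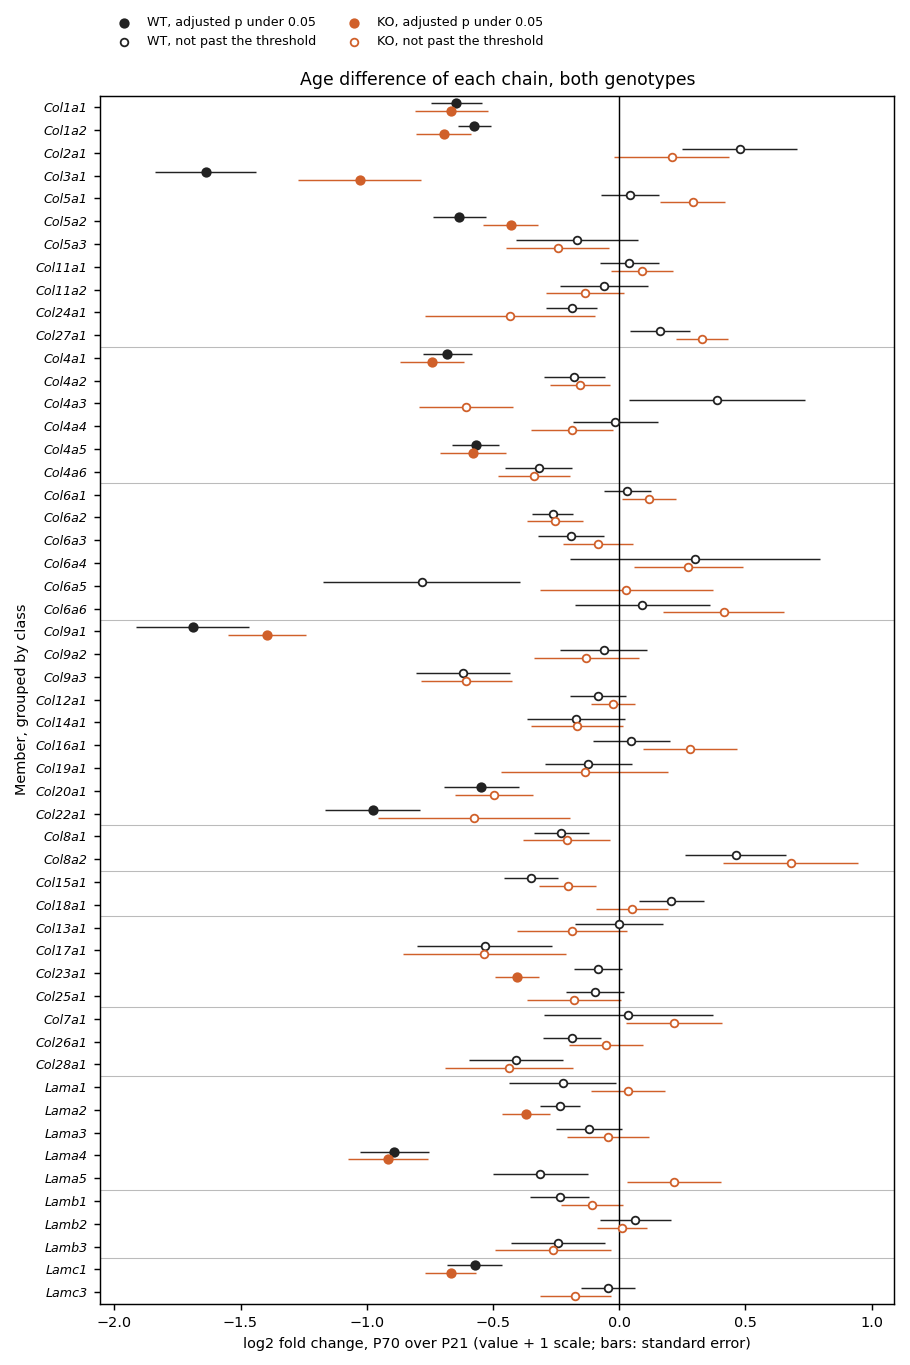
Points are log2 fold changes of P70 over P21 for 53 chains that passed the filter, black in WT and orange in KO mice, filled where the adjusted p was under 0.05, with bars for the standard error. The filled points lie left of 0, and Col3a1 and Col9a1 lie farthest left.

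**Figure D3:**
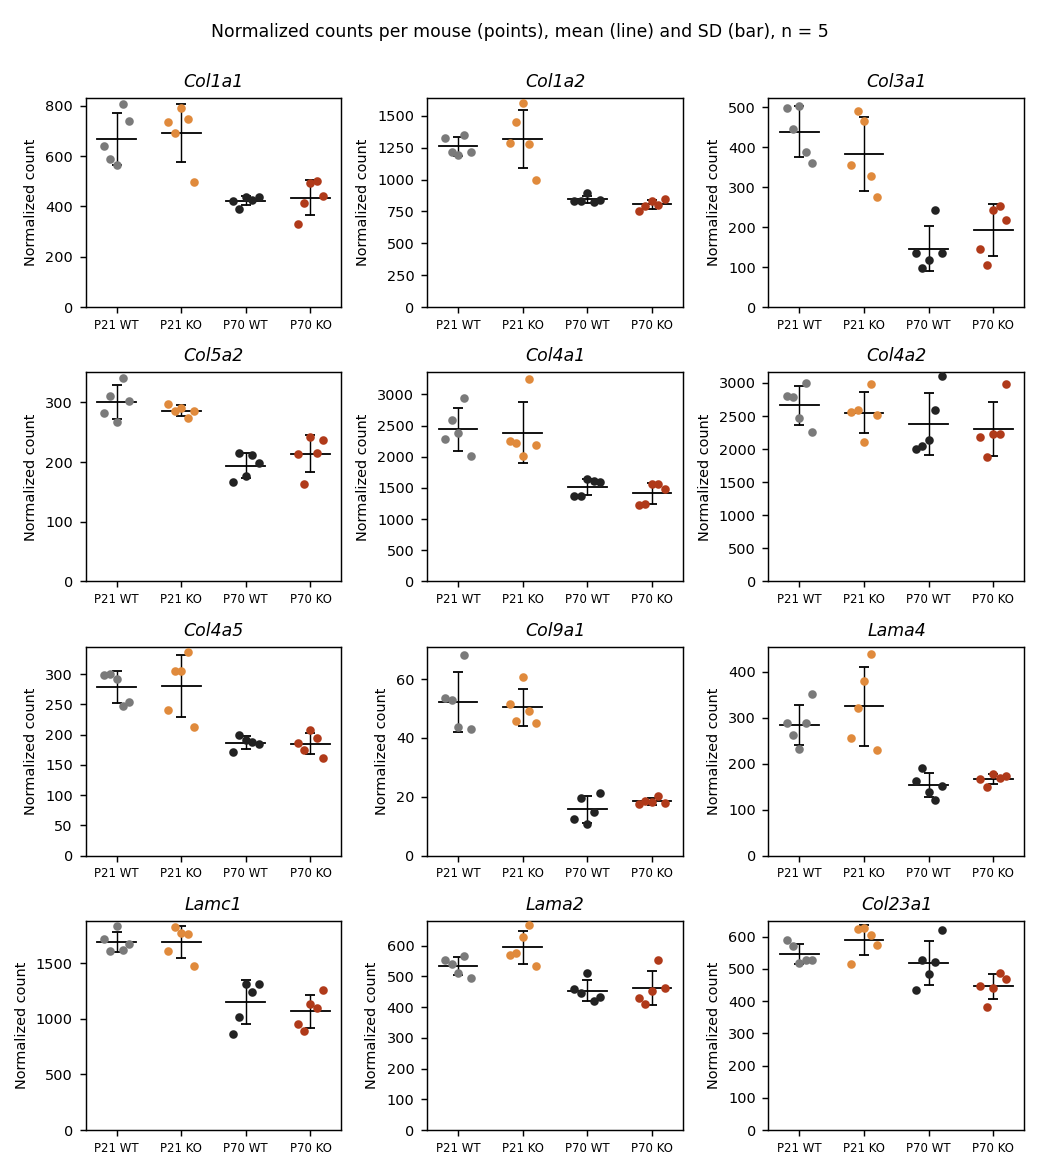
Normalized counts of 12 chains in each of the 5 mice of the 4 groups (points), with the mean (line) and SD (bar). For Col1a2, Col3a1, Col4a1, Col9a1, Lama4 and Lamc1 every P70 mouse lies below every P21 mouse of its genotype, while Col4a2 overlaps.

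Of the 12 chains called in WT and the 11 called in KO mice, 9 were the same, which is 75.0% of the WT calls and 81.8% of the KO calls: Col1a1, Col1a2, Col3a1, Col5a2, Col4a1, Col4a5, Col9a1, Lama4 and Lamc1. The 2 comparisons share no mice. The same share was not counted over all genes, so the overlap cannot be read as particular to the chains. When all replicate 5 mice were left out, 18 chains were called in WT mice (1 higher and 17 lower, where 15% of all genes were called) and 21 in KO mice (1 higher and 20 lower, where 19.4% were called), and these held all 12 and all 11 of the calls made with every mouse. Col9a3, Col6a2, Col15a1 and Col17a1 were added in both genotypes, all of them lower at P70. Col4a2 and Col11a2 were added in WT mice only, and Col4a3, Col4a6, Col5a3, Col20a1, Lamc3 and Col27a1 in KO mice only, of which Col27a1 was higher.

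The ratio of partner chains within a mouse was also described for 10 pairs, which were chosen after the values were seen and were therefore not tested. Such a ratio depends on transcript length, so that only its difference between groups can be read. The ratio of Col1a1 to Col1a2 was 0.474 to 0.608 in P21 WT, 0.472 to 0.521 in P70 WT, 0.477 to 0.586 in P21 KO and 0.436 to 0.627 in P70 KO mice, and these ranges overlapped. The ratio of Col4a1 to Col4a2 was 0.813 to 0.979 at P21 and 0.512 to 0.763 at P70 in WT mice, and 0.856 to 1.09 and 0.495 to 0.701 in KO mice, without overlap of the ages. The ratio of Col5a1 to Col5a2 was instead higher at P70, at 2.75 to 4.19 at P21 and 4.93 to 6.25 at P70 in WT mice, and 2.63 to 3.76 and 5.04 to 5.67 in KO mice, also without overlap.

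The ratio of Lamb2 to Lamc1 was 0.519 to 0.640 at P21 and 0.625 to 1.48 at P70 in WT mice, which overlapped slightly, and 0.509 to 0.703 and 0.857 to 1.26 in KO mice, which did not. The ratio of Col9a1 to Col9a3 was 0.0394 to 0.0600 in P21 WT and 0.0151 to 0.0303 in P70 WT mice. The ratios of Col4a3 to Col4a4, Col4a5 to Col4a6, Col6a1 to Col6a2, Col8a1 to Col8a2 and Lamb1 to Lamc1 overlapped between the ages in WT mice. In KO mice the first 4 of these overlapped as well, while that of Lamb1 to Lamc1 was 0.422 to 0.457 at P21 and 0.525 to 0.842 at P70, without overlap, and that of Col9a1 to Col9a3 was 0.0400 to 0.0523 and 0.0151 to 0.0391, also without overlap.

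**Figure D4:**
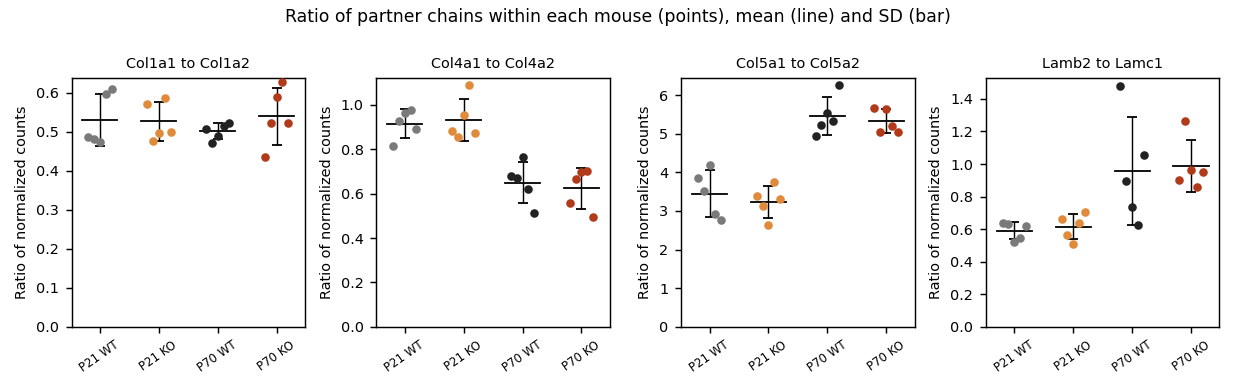
Ratio of the normalized counts of partner chains in each mouse (points), with the mean (line) and SD (bar) of 5 mice. The ratio of Col1a1 to Col1a2 lies between 0.436 and 0.627 in every mouse, while the ratios of Col4a1 to Col4a2 and of Col5a1 to Col5a2 separate P70 from P21.

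Genes that make, bind and cut collagens and laminins were described from 5 lists, from the same fits as the chains. In WT mice 7 of the 29 collagen biosynthesis genes tested were called at P70 against P21, 3 higher and 4 lower, with a median log2 fold change of -0.083, where 4.62% of all genes were called higher and 4.7% lower. In KO mice 1 was higher and 3 were lower, with a median of -0.056, where 3.78% of all genes were called higher and 4.53% lower. These shares over all genes also stand beside the counts of the lists that follow. Lox and Loxl2, lysyl oxidases that cross-link collagen, fell with log2 fold changes of -1.43 (adjusted p = 0.000921) and -1.12 (adjusted p = 0.00197) in WT mice, and had -0.79 (adjusted p = 0.0998) and -0.78 (adjusted p = 0.00991) in KO mice. P4ha1, a prolyl hydroxylase subunit, rose from 999.8 ± 92.1 to 1427 ± 257 normalized counts in WT mice, a log2 fold change of 0.50 (adjusted p = 0.0165), and by 0.51 (adjusted p = 0.00671) in KO mice. Pcolce2, an enhancer of procollagen cleavage, had 0.76 (adjusted p = 0.0219) in WT and 0.62 (adjusted p = 0.151) in KO mice.

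Among 20 partners of the basement membrane, 7 were called in each genotype, 2 higher and 5 lower (beside 9.32% of all genes called in WT and 8.32% in KO mice), with medians of -0.20 in WT and -0.044 in KO mice. The nidogens, which link laminin to collagen IV, fell. Nid1 went from 907 ± 109.8 to 402 ± 39.4 normalized counts in WT mice, a log2 fold change of -1.17 (adjusted p = 1.63e-05), and had -1.44 (adjusted p = 0.000288) in KO mice, and Nid2 had -0.90 (adjusted p = 0.00618) and -0.89 (adjusted p = 0.00439). Smoc2, a matrix protein that binds calcium, rose by 0.64 (adjusted p = 0.000572) in WT and 0.65 (adjusted p = 0.00147) in KO mice, and Tinagl1 had 0.60 (adjusted p = 0.0221) and 0.46 (adjusted p = 0.107).

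Of 17 receptors of collagens and laminins, 1 was higher and 3 were lower in each genotype, with medians of -0.0010 in WT and -0.026 in KO mice. Itgb1, the shared beta subunit of these integrins, fell from 2379 ± 115 to 1620.2 ± 218 normalized counts in WT mice, a log2 fold change of -0.56 (adjusted p = 0.00215), and had -0.62 (adjusted p = 0.00242) in KO mice. The collagen receptor kinase Ddr1 fell in both, with -0.48 (adjusted p = 0.00219) and -0.54 (adjusted p = 0.00201), and Itga11, an alpha subunit of a collagen receptor, had 0.65 (adjusted p = 0.018) and 0.31 (adjusted p = 0.304). Of 18 matrix proteases and inhibitors, 1 was higher and 3 lower in WT mice (median -0.097), and 0 higher and 4 lower in KO mice (median -0.074). Mmp2, a gelatinase that cuts collagen IV, had -0.88 (adjusted p = 0.000789) in WT and -0.78 (adjusted p = 0.0103) in KO mice, Adamts4 had -0.85 (adjusted p = 0.000308) and -0.88 (adjusted p = 0.00022), and the inhibitor Timp3 had 0.31 (adjusted p = 0.0251) and 0.08 (adjusted p = 0.615). Of 10 small leucine-rich proteoglycans tested in WT mice, 1 was called, Prelp, which rose by 0.72 (adjusted p = 0.000432), and by 0.52 (adjusted p = 0.00596) in KO mice. In the genotype comparisons and in the interaction 0 genes of these lists were called.

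Markers of the cell types that make these chains were summed in each mouse. The 16 brain endothelial markers summed to 12948 to 14574 in P21 WT, 11596 to 15136 in P21 KO, 10016 to 13088 in P70 WT and 10374 to 13374 in P70 KO mice, and 4 of the 16 fell in WT mice and 2 in KO mice, with median log2 fold changes of -0.25 and -0.20. Of 20 fibroblast markers of meninges and vessels 19 were in the table, and they summed to 11577 to 13576 in P21 WT, 11045 to 15379 in P21 KO, 9985 to 12498 in P70 WT and 10863 to 11769 in P70 KO mice, with 1 higher and 1 lower at P70 in each genotype and medians of 0.12 and 0.13. The 13 pericyte and smooth muscle markers summed to 5966 to 6582, 6045 to 7054, 5067 to 6808 and 5398 to 7466 in the same order, with 1 lower in WT and 2 lower in KO mice and medians of -0.020 and -0.033. Each of these markers had a mean of at least 10 normalized counts, and their part in the falls of the chains was not tested.

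The 12 choroid plexus markers summed to 12864 to 18911 in P21 WT, 14697 to 27431 in P21 KO, 12948 to 27914 in P70 WT and 15815 to 27819.8 in P70 KO mice, with 2 higher at P70 in WT and 0 in KO mice. All 6 oligodendrocyte markers fell in both genotypes, with sums of 379578 to 428153 at P21 and 160160.0 to 183859 at P70 in WT mice, and sums of the 7 neuron, 6 astrocyte and 6 microglia markers overlapped between the ages in KO mice. In WT mice the neuron sums were 155210.0 to 161482 at P21 and 163155 to 168302 at P70. With 6 of them tested, cartilage and bone markers had 2 higher and 3 lower in WT and 2 higher and 2 lower in KO mice. Of these markers 7 of 11 were in the table and summed to at most 849.9 in any mouse, of skeletal muscle markers 5 of 7 with at most 298, and of pituitary markers 6 of 9 with 134 to 7654, and 0 of the muscle and pituitary markers tested were called. The part of these cells in the result was not tested.

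To determine whether loss of Katnal2 changed these chains, KO was compared with WT at each age. At P21 limma called 0 of the 54 chains, where 0% of the 17610 genes tested were called, and 1 chain had an unadjusted p under 0.05 (1.85%, against 2.44% of all genes). At P70 it called 0 of the 54, where 0% of the 17613 genes were called, and 0 chains had an unadjusted p under 0.05 (0%, against 1.13%). Since no gene at all was called, these comparisons do not show that the chains were unchanged. With DESeq2 the authors reported small sets of genes that differed between the genotypes at both ages. They also reported a moderate positive enrichment of extracellular matrix gene sets in KO mice at P21. The log2 fold changes of KO over WT ran from -0.42 to 0.38 at P21, with 27 chains above and 27 below 0 and a median of 0.0054, and from -0.62 to 0.39 at P70, with 32 above and 22 below 0 and a median of 0.014.

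At P21 the smallest p belonged to Lama2, which had 569.9, 575, 628, 668 and 534 normalized counts in the 5 KO brains against 555, 540.4, 512, 566 and 494 in the 5 WT brains, with a log2 fold change of 0.15 (SE 0.07, adjusted p = 1.00) with an unadjusted p of 0.046. The KO mice lay toward the upper end but overlapped the WT mice. The next were Col16a1 at -0.22 (95% confidence interval -0.44 to 0.00), Col4a3 at 0.38 (-0.01 to 0.76), Col15a1 at -0.19 (-0.41 to 0.02), Col4a6 at 0.23 (-0.04 to 0.50) and Col23a1 at 0.11 (-0.04 to 0.26), each with an adjusted p of 1.00. Col15a1 was at -0.12 without WT replicate 4 and Col4a6 at 0.15 without KO replicate 3.

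At P70 the smallest p belonged to Col23a1, which had 447, 383, 440.3, 488 and 469 normalized counts in the 5 KO brains against 435, 526, 484, 521 and 622 in the 5 WT brains, with a log2 fold change of -0.21 (SE 0.11, adjusted p = 1.00). Replicates 1 and 3 of the WT mice lay among the KO mice. Col4a3 followed, which had 31.2, 29.9, 31.2, 21.6 and 33.2 normalized counts in the 5 KO brains against 26.1, 27.2, 40.2, 123 and 52.4 in the 5 WT brains, with a log2 fold change of -0.62 (SE 0.37, adjusted p = 1.00), and without WT replicate 4 it was -0.26. Col4a6 was at 0.21 (95% confidence interval -0.10 to 0.52), Col27a1 at 0.18 (-0.09 to 0.45), Col6a6 at 0.39 (-0.19 to 0.96) and Col24a1 at -0.29 (-0.72 to 0.15), each with an adjusted p of 1.00. Leaving out 1 mouse moved these values, with Col4a6 at 0.14 without KO replicate 5, Col27a1 at 0.08 without WT replicate 1, Col6a6 at 0.21 without WT replicate 5, and Col24a1 at -0.17 without KO replicate 2 and -0.48 without KO replicate 4. For the chains that fell with age the intervals at P70 were -0.22 to 0.08 for Col1a2, -0.32 to 0.11 for Col4a1 and -0.40 to 0.19 for Lamc1, and that of Col3a1 was wider, at -0.22 to 1.01.

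The interaction of age and genotype, tested over all 20 mice, called 0 of the 54 chains, where 0% of the 17637 genes tested were called, and 2 chains had an unadjusted p under 0.05 (3.7%, against 1.68% of all genes). These were Col23a1, described above, and Col4a3, at -0.99 (SE 0.42, adjusted p = 1.00) with an unadjusted p of 0.0285, which was -0.63 without P70 WT replicate 4. Lama5 was the next, at 0.53 (SE 0.29, adjusted p = 1.00). For Col1a1, Col1a2, Col4a1, Col4a5, Lama4 and Lamc1 the difference of the age changes between KO and WT lay between -0.12 and -0.010, with 95% confidence intervals of -0.40 to 0.36 for Col1a1, -0.41 to 0.29 for Col4a1 and -0.48 to 0.43 for Lama4. The other chains called in both genotypes, Col3a1, Col5a2 and Col9a1, went the other way. Their estimated fall was smaller in KO than in WT mice, with a difference of 0.61 for Col3a1, and none passed the test.

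**Figure D5:**
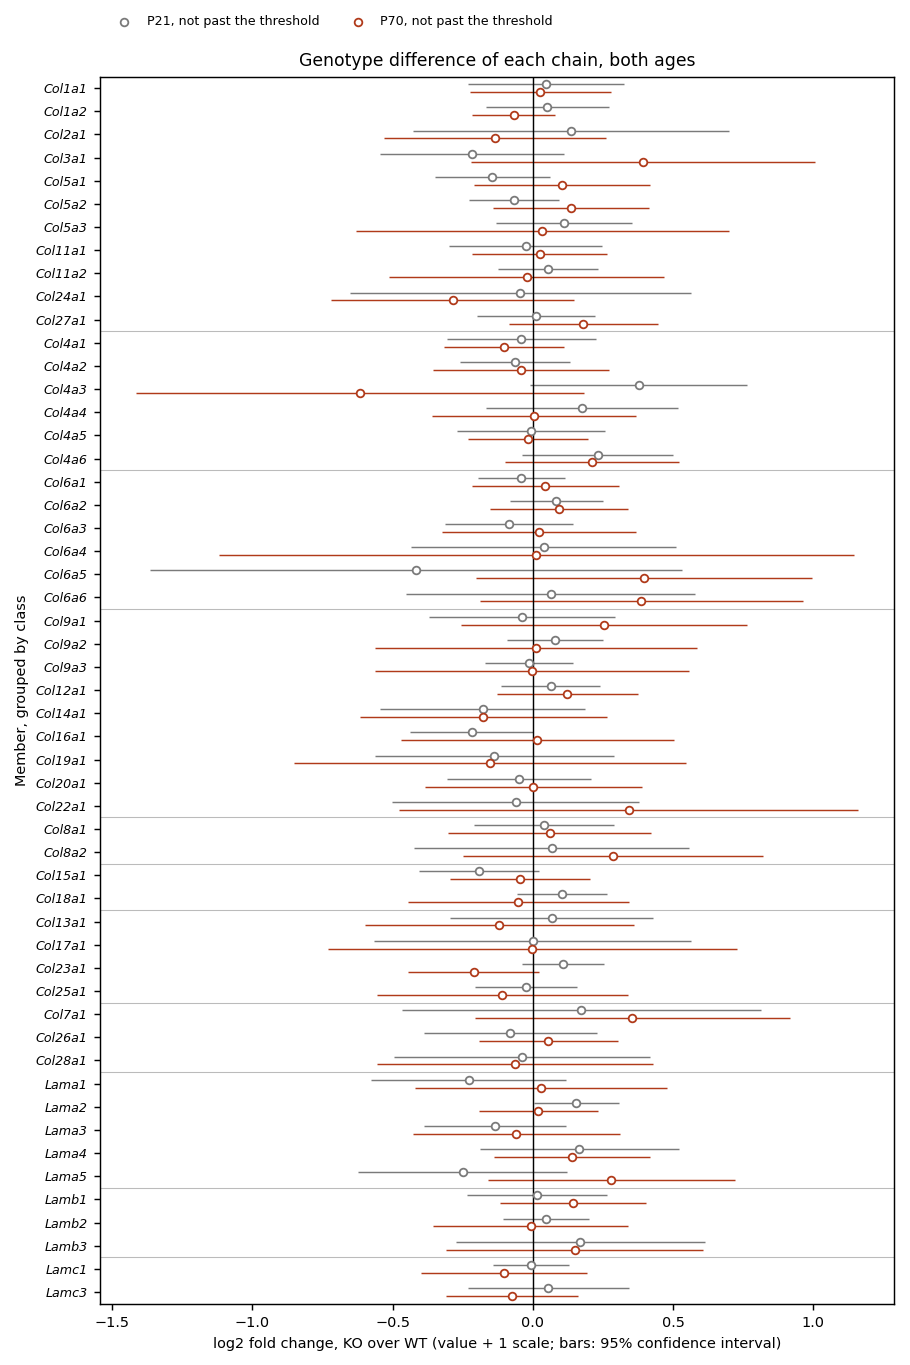
Points are log2 fold changes of KO over WT for 53 chains, grey at P21 and red at P70, with bars for the 95% confidence interval, and all points are open because no adjusted p was under 0.05. Each interval includes 0 apart from that of Lama2 at P21 (0.0032 to 0.31).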

How the data were processed

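Whole-brain poly-A RNA of 20 male mice was sequenced in pairs of ends on a HiSeq instrument. Reads were quantified by the authors with Salmon 1.1.0 on GRCm38 with correction for GC bias, summed per gene with tximport and scaled with DESeq2 1.26.0 in R 3.6.2, versions being those in the submitters' processing notes. The deposited values are normalized gene counts, treated here as a signal because they did not return to whole reads for nearly all genes, so that no count test was run, and depth was read approximately from the spacing of low values. The deposited table held values of the 20 mice only, and results of the authors' own comparisons were not used in the fits. Here log2(value + 1) was tested with limma 3.58.1 (R 4.3.3, moderated with an intensity trend) on genes with a mean of at least 10 over the mice compared, each age or genotype comparison on its 2 groups alone and the interaction on all 20 mice, with Benjamini-Hochberg adjustment over all genes and a threshold of 0.05. Fold changes are on the log2(value + 1) scale, which understates changes of low genes, and intervals are 95% intervals. P-values weigh a difference of group means against the spread between these mice, moderated over all genes. The fit was tested on simulated data in which every group had the spread of the P21 WT mice. Mice that stand apart, such as replicate 5 at P70, were thus not covered. Gene names and positions came from GENCODE M21 on GRCm38, to which 19447 of 19463 genes matched, and Python 3.11.15 was used for descriptions.

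The chains and the lists of related genes and cell markers were chosen with earlier results of these data known. Named were, in each class, up to 4 chains called in WT mice between the ages and the chain highest per kilobase, the 6 chains with the smallest p in each genotype comparison and the 3 in the interaction, chains under the filter, and in each related list the 2 genes called in WT mice with the largest change in each direction. Partner chains, chains called in KO mice only and those with the highest estimates were added after their values were seen. The values of 1 chain that passed the filter are not reported here, and it stays in the counts over all chains. Alternatives were no trend, pseudocounts of 0.5 and 5, no filter or a minimum mean of 50, quantile normalization, the replicate number as a block, a shared fit, and leaving out each mouse or all replicate 5 mice.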

Additional observations from a re-analysis of the deposited data

Results flagged for a closer look

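In the 128 groups of 5 mice examined for the 32 chains named by the rule, 18 values stood apart from the other 4 mice by Dixon's criterion, and chance alone flags about 1 in 20 groups. At P70, replicate 5 accounted for 7 of them, all high. In WT mice Col11a2 had 1859 normalized counts there against 830.6 to 1104.5 in the others, Col18a1 had 1414 against 843 to 953, and Col7a1 had 475 against 159 to 227. In KO mice Col9a3 had 1187 against 519.7 to 708, Col18a1 had 1410.3 against 781 to 919, Col16a1 had 1827 against 849.7 to 922, and Col15a1 had 284.5 against 209.8 to 226.

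The other high values were Col3a1 in P70 WT replicate 4 (243.6 against 98.2 to 135.4), Col1a2 in P70 WT replicate 3 (894 against 826 to 841), Col4a1 in P21 KO replicate 4 (3253.5 against 2014 to 2259), and Col22a1 in P70 KO replicate 3 (171 against 33.4 to 68.1). Col4a3 in P70 WT replicate 4 had 123.5 against 26.1 to 52.4, and Col15a1 in P21 WT replicate 4 had 367 against 278 to 298. Col10a1, under the filter, had 13.4 in P21 KO replicate 2 against 6.3 to 8.3, and 18.8 in P70 WT replicate 4 against 5.8 to 7.3.

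Low values were Col11a2 in P21 WT replicate 5 (933 against 1172 to 1234), Col4a3 in P70 KO replicate 4 (21.6 against 29.9 to 33.2) and Col6a6 in P21 KO replicate 2 (11.8 against 18.5 to 21.2).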

How the results depend on the processing

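The 38 differences recomputed under every alternative were the called age differences and the genotype and interaction differences with the smallest p. None of these turned direction, and of their values 702 kept their side of the threshold and 41 lost it. Other age differences were recomputed only without all replicate 5 mice. There, values that were not called turned sign in WT mice for Col6a1 (to -0.07), Col5a1 (to -0.09), Lamb2 (to -0.02) and Col7a1 (to -0.30). The same held in WT mice for Col4a4 (to 0.0015), Col25a1 (to 0.02), Col16a1 (to -0.15), Col11a1 (to -0.12) and Col12a1 (to 0.01). In KO mice the sign turned for Col18a1 (to -0.08), Lamb2 (to -0.04), Col25a1 (to 0.06) and Col19a1 (to 0.28). It also turned there for Lama3 (to 0.02), Col26a1 (to 0.01) and Col6a5 (to -0.01). With 1 mouse left out at a time, limma called 10 to 15 chains between the ages in WT mice and 7 to 18 in KO mice, and 0 to 0 in both genotype comparisons and in the interaction. The lowest count in KO mice, 7, came without P21 KO replicate 2, where 5.43% of all genes were called, and the highest, 18, without P70 KO replicate 5, where 21.3% were. Without all replicate 5 mice, 21 chains were called in KO mice (19.4% of all genes). The other settings gave counts within 1.5 times those with all mice, and the cause of these differences was not tested.

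With the replicate number as a block, 10 chains were called between the ages in WT (7.18% of all genes) and 8 in KO mice (5.18%), and 0 in the genotype comparisons and the interaction. The labels give no shared origin for mice of 1 number. Correlations of same-numbered mice ran from -0.119 to 0.16 between the ages in KO mice and from -0.102 to 0.156 in WT mice. Between the genotypes they ran from -0.00913 to 0.26 at P21 and from 0.0749 to 0.175 for replicates 1 to 4 at P70. The numbers were not taken to pair the mice. The KO and WT replicate 5 mice at P70 were the exception, at 0.705, and what they shared was not tested. Not every mouse correlated best with its own number. Low chains such as Col4a3, Col6a6 and Col9a1 rest on few reads, and Col4a3 and Col6a6 had wide intervals.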
